A study of Mus musculus with 8 samples.

Results

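Apoc2, related apolipoproteins and lipid transfer genes are described here across kidneys that had undergone ischaemia-reperfusion injury (IRI). They comprise 8 of the 34450 genes in the table, namely Apoe, Apoc1, Apoc2, Apoc4, Apod, Apom, Lpl and Pltp. The genes were chosen by symbol with their levels after hypoxia and after normoxia in view, so these differences are a description, no p-value is given for them, and nothing is supported with them. The hypoxia group held kidneys of 8-week-old C57BL/6J mice that were kept in low oxygen before IRI, and the normoxia group those of mice of the same age and strain kept in normal oxygen before IRI. All were taken at day 3 after the injury, with 4 libraries in each group (hypoxia libraries 1 to 4 and normoxia libraries 5 to 8). No uninjured kidney was analysed here. The labels do not say that each library is 1 mouse, so the errors and p-values cover the spread between libraries, which may be technical. The SE of log2 differences also draw on the spread of other genes, as given below for Apoc2.

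Apolipoproteins are the protein coats of the particles that carry lipid in plasma. Lipoprotein lipase, the product of Lpl, is anchored to capillary walls, where it hydrolyses triglyceride, and apolipoprotein C-II, the product of Apoc2, is the cofactor it requires. Apolipoprotein E directs particles to receptors of the LDL receptor family and is made by macrophages as well as by liver. In the kidney, apolipoprotein M is a product of the proximal tubule that binds sphingosine 1-phosphate, and it is taken up again from the filtrate by megalin.

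Values are FPKM, fragments scaled to transcript length and to the mapped total, as the authors deposited them. The commonest lowest values placed depth at about 8525149 to 14684288 fragments per library, of which ribosomal transcripts took 21.5% to 67.4% in the hypoxia libraries and 13.5% to 72.5% in the normoxia libraries. Normoxia library 5 stood apart. Its genes with an exon length under 1500 bases were higher (median 0.38) and its genes over 6000 bases lower (median -0.66) than the mean of the 8 libraries on the log2 scale, and its Spearman correlation with the mean of the others was 0.687, against 0.838 to 0.933 for the remaining 7. The transcripts of Apoc1, Apoc2 and Apom are short (exon lengths of 744, 813 and 1013 bases), that of Lpl is long (10478 bases), and the differences of the 6 of the 8 genes that were tested are therefore also given without that library. In the hypoxia group, libraries 1 and 2 lay above libraries 3 and 4 for Apoe, Apom, Lpl and Pltp as deposited. Ribosomal transcripts took 40.95%, 21.55%, 66.3% and 67.41% in hypoxia libraries 1 to 4. Their divisors in TMM scaling (a weighted trimmed mean of log ratios between libraries) were 1.24, 1.42, 0.65 and 0.66, so this order can depend on the scaling.

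Apoe, Apoc1, Apoc4 and Apoc2 lie head to tail on the minus strand of chromosome 7, within 27610 bases (19671579 to 19699188 on GRCm38, GENCODE M21). Apod is on chromosome 16, Apom on chromosome 17, Lpl on chromosome 8 and Pltp on chromosome 2. The sequence before the start of Apoc2 is shown because Apoc2 had the widest separation between the groups, and that of Apoe because Apoe is its most abundant neighbour in the cluster. Both are RefSeq sequences of GRCm38.p6 on the minus strand, 5′ to 3′, ending at the base before the start, chr7:19677942-19678082 for Apoc2 and chr7:19699189-19699438 for Apoe. The Apoc2 window is limited to 141 bases because the last exon of Apoc4 lies beyond it. Capitals mark the nuclear receptor half-site AGGTCA.
Apoc2: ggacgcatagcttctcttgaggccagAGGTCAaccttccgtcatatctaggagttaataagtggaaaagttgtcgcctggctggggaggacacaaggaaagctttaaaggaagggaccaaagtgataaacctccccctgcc
Apoe: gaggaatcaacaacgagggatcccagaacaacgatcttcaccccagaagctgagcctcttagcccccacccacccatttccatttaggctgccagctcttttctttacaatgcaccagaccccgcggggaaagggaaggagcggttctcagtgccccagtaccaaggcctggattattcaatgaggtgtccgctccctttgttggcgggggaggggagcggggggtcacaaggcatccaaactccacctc
Both strands were searched for this half-site, for a core promoter box with the letters TATAAA, and for the binding motif of Sp1 with the letters GGGCGG. The Apoc2 window held 1 match, the half-site that begins 115 bases before the start, and it overlapped no other motif. The same letters were found in 6.94% of 19873 promoter windows of that length. None of the 3 motifs was in the Apoe window of 250 bases, where the half-site was found in 12.5% of all windows, TATAAA in 8.49% and GGGCGG in 46.5%. A match is a description of letters and not a bound site.

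Apoc2 was at or near the limit of detection after hypoxia and was present in every normoxia library. It was listed at 0, 0.82, 0 and 0 FPKM in hypoxia libraries 1 to 4, against 32.38, 2.01, 5.63 and 1.26 FPKM in normoxia libraries 5 to 8. The groups did not overlap, and normoxia library 5 held several times as much as any other library. The means were 0.205 ± 0.41 FPKM in hypoxia libraries, against 10.3 ± 14.8 FPKM in normoxia libraries (SD, n = 4 in each), and 2.97 ± 2.34 FPKM (SD, n = 3) after normoxia without library 5. The difference in log2(FPKM + 0.5), hypoxia minus normoxia, was -3.10 ± 0.64 (SE) with all libraries and -2.24 without normoxia library 5. Each SE of a log2 difference is the moderated SE of limma, which draws a gene's variance toward a trend over all tested genes. From the 8 libraries of Apoc2 alone, the SE was 1.006. Such an SE was also larger than that of limma for Apoe, Apoc1, Apom and Pltp, and smaller for Lpl. The log2(FPKM + 0.5) scale understates changes of low genes.

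Few fragments stood behind these values. At the estimated depths, Apoc2 rested on about 9.59 fragments in hypoxia library 2, and on about 367, 15.7, 67.2 and 9.36 fragments in normoxia libraries 5 to 8. A count of 0 allows up to 3 fragments, which would be 0.303, 0.433 and 0.411 FPKM in hypoxia libraries 1, 3 and 4, all below the lowest normoxia value. These limits cover counting error only, and only in the libraries at 0. The closest pair was hypoxia library 2 at 0.82 FPKM and normoxia library 8 at 1.26 FPKM. These rested on about 9.59 and 9.36 fragments, and whether counting error could close that gap was not tested. The read-through gene Gm44805 shares the ground of Apoc2 and Apoc4 and was listed at 0.11 FPKM in hypoxia library 1 and at 0 in the other 7, so fragments of the 3 genes could have been divided among them.

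Of the 8 genes, 6 had a mean over all libraries of at least 0.5 FPKM and entered the fit of all 14444 genes that passed this filter. Apoc4 and Apod did not pass it. In that fit (limma, Benjamini-Hochberg adjusted p under 0.05) 1 of the 6, Apoc2, was past the threshold, where 0.907% of all tested genes were called (0.305% higher and 0.602% lower after hypoxia). The groups did not overlap for 1 of the 8, again Apoc2, while 3.06% of all tested genes lay wholly lower after hypoxia. The choice of the genes used this contrast, and these counts carry no weight of their own.

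**Figure D1:**
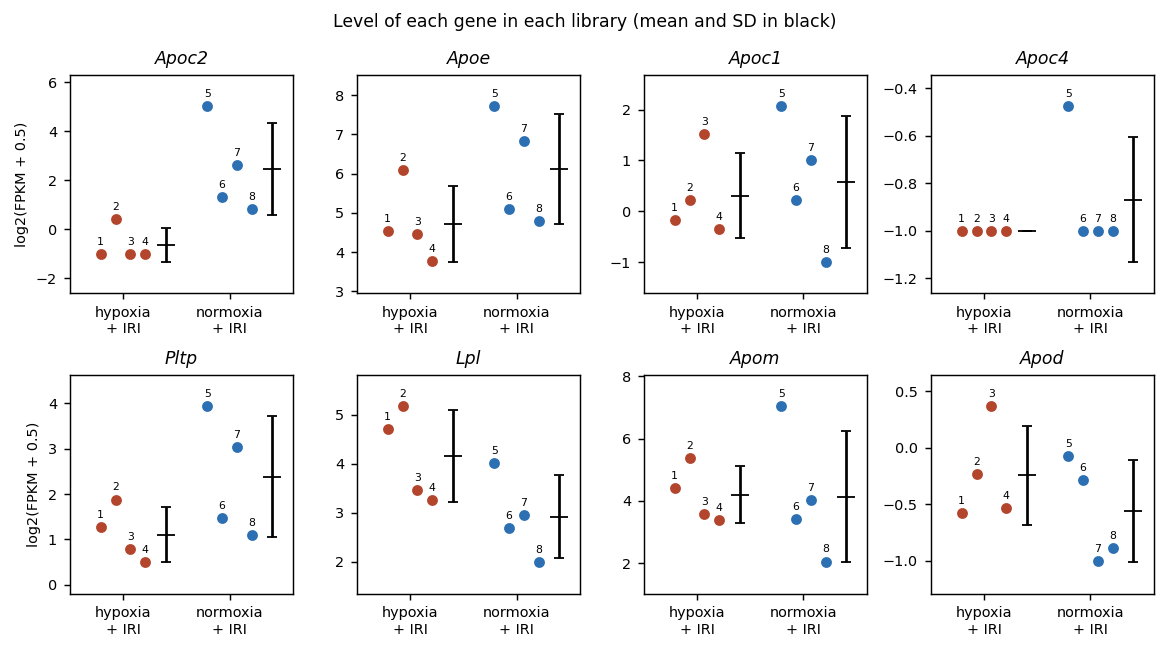
Level of each of the 8 genes as log2(FPKM + 0.5), vertical axis, in the 4 hypoxia libraries (red, left) and the 4 normoxia libraries (blue, right), numbered by library, with the group mean and SD in black. The groups are apart for Apoc2, normoxia library 5 is the highest library for Apoc2, Apoe, Apoc1, Apoc4, Pltp and Apom, and Lpl is the only one of the 8 in which hypoxia library 2 is the highest.

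Apoe was the most abundant of the 8 genes in both groups by mean FPKM. It was at 22.83, 67.87, 21.69 and 13.29 FPKM in hypoxia libraries 1 to 4, against 211.9, 34.06, 112.6 and 27.06 FPKM in normoxia libraries 5 to 8. The groups overlapped through hypoxia library 2, which lay above normoxia libraries 6 and 8. Means were 31.4 ± 24.7 FPKM in hypoxia libraries, against 96.4 ± 86.2 FPKM in normoxia libraries (SD, n = 4 in each), with a log2 difference of -1.39 ± 0.84 (SE), or -0.85 without normoxia library 5.

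Pltp, whose product transfers phospholipid between lipoprotein particles, followed Apoe. It was at 1.93, 3.18, 1.22 and 0.91 FPKM in hypoxia libraries 1 to 4, against 14.79, 2.28, 7.65 and 1.64 FPKM in normoxia libraries 5 to 8. The order of libraries within each group resembled that of Apoe, and the groups overlapped. The log2 difference was -1.27 ± 0.59 (SE), and -0.76 without normoxia library 5.

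Lpl went the other way. It was at 25.64, 35.65, 10.55 and 9.04 FPKM in hypoxia libraries 1 to 4, against 15.78, 5.93, 7.3 and 3.47 FPKM in normoxia libraries 5 to 8. All hypoxia libraries were above normoxia libraries 6, 7 and 8, and normoxia library 5 lay among the hypoxia values. Means were 20.2 ± 12.7 FPKM in hypoxia libraries, against 8.12 ± 5.35 FPKM in normoxia libraries (SD, n = 4 in each), and 5.57 ± 1.94 FPKM (SD, n = 3) after normoxia without library 5. The log2 difference was 1.24 ± 0.69 (SE), or 1.61 without that library.

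A ratio of 2 genes within a library does not change when each library is scaled by 1 factor. It can change with quantile or length-trend scaling. The length trend of normoxia library 5 bears on it, since Lpl (10478 bases), Apoe (2138 bases) and Apoc2 (813 bases) differ in length. Lpl was 1.12, 0.525, 0.486 and 0.68 times Apoe in hypoxia libraries 1 to 4, against 0.0745, 0.174, 0.0648 and 0.128 times in normoxia libraries 5 to 8. Every hypoxia library, the lowest at 0.486, stood above every normoxia library, the highest at 0.174, and normoxia library 5 did not stand apart in this ratio. Apoc2 was at most 0.0121 times Apoe after hypoxia and 0.0466 to 0.153 times Apoe after normoxia, so that every hypoxia library was below every normoxia library in this ratio too. The mean proportion of Pltp to Apoe was similar in the groups, 0.064 ± 0.0163 after hypoxia and 0.0663 ± 0.00399 after normoxia (SD, n = 4 each). It was nearly constant over the normoxia libraries (0.0606 to 0.0698) and varied more over the hypoxia libraries (0.0469 to 0.0845). The ratios use the levels the genes were chosen on and are given without a test.

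**Figure D2:**
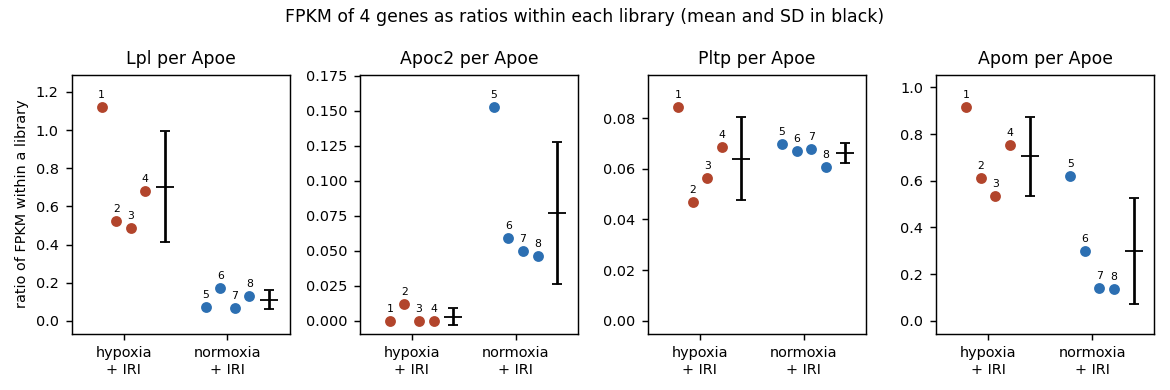
Ratio of the FPKM of Lpl, Apoc2, Pltp and Apom to that of Apoe within each library (vertical axes, linear, each on its own range), for the hypoxia libraries (red, left) and the normoxia libraries (blue, right), numbered by library, with mean and SD in black. Lpl per Apoe lies between 0.486 and 1.12 after hypoxia and between 0.0648 and 0.174 after normoxia, whereas Pltp per Apoe spans 0.0469 to 0.0845 after hypoxia and 0.0606 to 0.0698 after normoxia.

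Apom showed no separation in the values as deposited. It was at 20.94, 41.47, 11.55 and 10.03 FPKM in hypoxia libraries 1 to 4, against 131.7, 10.12, 15.85 and 3.66 FPKM in normoxia libraries 5 to 8. Normoxia library 5 alone held more than all 4 hypoxia libraries together, and the other normoxia libraries were at or below the middle of the hypoxia range. The log2 difference was 0.06 ± 0.87 (SE) with all libraries and 1.03 without normoxia library 5. With TMM scaling it was 0.26 ± 0.90 (SE), and 1.33 ± 0.30 (SE) with normoxia library 5 left out as well. The 20 proximal tubule markers, summed, were at 3320 to 16850 FPKM in the hypoxia libraries and at 461 to 12010 FPKM in the normoxia libraries, with normoxia library 5 again the highest of its group. Their median log2 difference was 1.16, where that of all tested genes was -0.14. One marker, the amino acid transporter gene Slc7a13, was past the threshold (log2 difference 3.58 ± 0.80, SE, limma adjusted p = 0.0279), and its adjusted p was 0.00249 to 0.43 over 19 alternatives in limma. It did not pass with TMM scaling of all 8 libraries (adjusted p = 0.0556, or 0.0609 with factors from all genes), without the filter or without normoxia library 7. One gene, Kap, gave 73.6% of the proximal tubule FPKM over the 8 libraries. The part of the tubule content in the level of Apom was not tested.

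Apoc1, Apoc4 and Apod were low. Apoc1, whose product restrains lipoprotein lipase and the uptake of particles, was at 0.39, 0.66, 2.35 and 0.29 FPKM in hypoxia libraries 1 to 4, against 3.71, 0.67, 1.5 and 0 FPKM in normoxia libraries 5 to 8, with groups that overlapped and a log2 difference of -0.27 ± 0.54 (SE), or 0.23 without normoxia library 5. Apoc4 was listed at 0 in all libraries but normoxia library 5, where 0.22 FPKM corresponded to about 7.78 fragments. Apod, which encodes a lipocalin found in many peripheral tissues, was at 0.17, 0.35, 0.79 and 0.19 FPKM in hypoxia libraries 1 to 4, against 0.45, 0.32, 0 and 0.04 FPKM in normoxia libraries 5 to 8. Both Apoc1 and Apod had their highest hypoxia value in hypoxia library 3. Of the 12 fat cell markers, 6 were also highest in that library, namely Cfd at 26.12 FPKM, Cidec at 2.65 FPKM, Adipoq at 2.46 FPKM, Plin1 at 1.42 FPKM, Pparg at 0.77 FPKM and Adrb3 at 0.39 FPKM. Of the others, Lipe and Plin4 were highest in hypoxia library 2, Car3 in hypoxia library 1, Retn in normoxia library 5 and Fabp4, which gave 32.5% of the list's FPKM, in normoxia library 7, and Lep was listed at 0 everywhere. The 12 fat cell markers, summed, were at 15.8 to 54.2 FPKM after hypoxia and 3.64 to 21.2 FPKM after normoxia, with none of the 7 tested past the threshold and Adrb3 and Lep under 0.5 FPKM in every library, and their part in Apoc1 and Apod was not tested.

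By mean FPKM, which corrects for length, the order after hypoxia was Apoe, Apom, Lpl, Pltp, Apoc1, Apod, Apoc2 and Apoc4. After normoxia it was Apoe, Apom, Apoc2, Lpl, Pltp, Apoc1, Apod and Apoc4. Apoc2 took its place after normoxia through library 5. Without that library its mean, 2.97 FPKM, was below those of Lpl, 5.57 FPKM, and Pltp, 3.86 FPKM, and in each of normoxia libraries 6, 7 and 8 it was below both. After hypoxia the ranges of Apoe, Apom and Lpl across libraries overlapped (31.4 ± 24.7, 21 ± 14.5 and 20.2 ± 12.7 FPKM, SD, n = 4), although within each of the 4 hypoxia libraries Apom was below Apoe (0.917, 0.611, 0.533 and 0.755 times). The lowest of the 3 in any hypoxia library, 9.04 FPKM, was above the highest Pltp value, 3.18 FPKM. After normoxia, the ranges of Apoc2, Lpl and Pltp overlapped, at 10.3 ± 14.8, 8.12 ± 5.35 and 6.59 ± 6.10 FPKM (SD, n = 4).

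The directions of Apoc2, Apoe and Pltp (lower) and of Lpl (higher) were the same under all 19 alternatives to the processing. Part of this was fixed in advance. Changing the filter or averaging hypoxia pairs leaves these differences as deposited. Leaving out a library or changing the pseudocount cannot turn that of Apoc2, whose groups did not overlap. Apoc1 was higher in 5 of 18, and Apom lower in 4 of 19, so neither has a direction to report. Scaling by TMM, a weighted trimmed mean of log ratios between libraries, moved the median log2 difference of all tested genes to 0.0157, against -0.14 as deposited. With TMM scaling and normoxia library 5 left out, the log2 differences were -2.14 for Apoc2, -0.55 for Apoe, -0.50 for Pltp, 1.33 for Apom and 1.89 for Lpl. The call of Apoc2, itself only a description, was lost in 6 of the 19, which were no filter on low values, TMM scaling of all 8 libraries in both versions, removal of the length trend, and leaving out normoxia library 5 (log2 difference -2.24) or normoxia library 7 (-3.04).

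**Figure D3:**
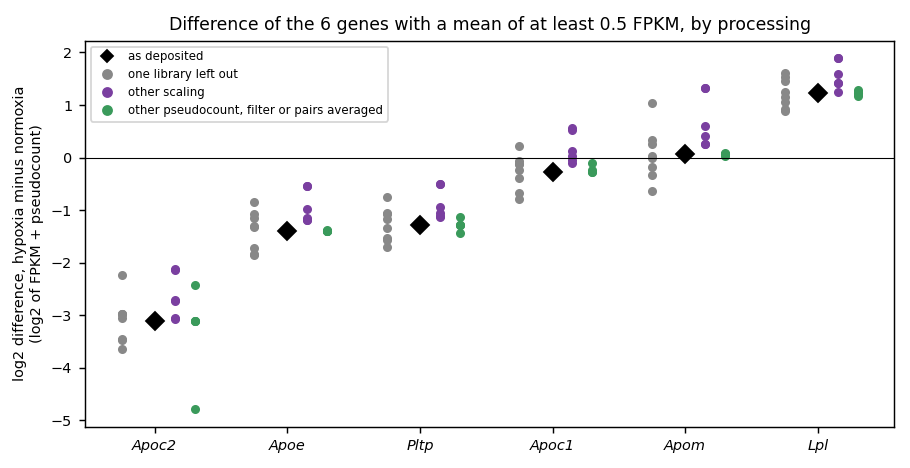
Log2 difference, hypoxia minus normoxia, of the 6 genes with a mean of at least 0.5 FPKM (vertical axis), as deposited (black diamonds), with 1 library left out (grey), with another scaling (purple) and with another pseudocount or filter or with hypoxia libraries averaged in pairs (green). Apoc2 ranges from -4.79 to -2.13 and Lpl from 0.89 to 1.89 over the alternatives, while Apoc1 and Apom lie on both sides of 0.

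None of the 4 tested genes within 50000 bases of the cluster passed in limma, but Relb was separated between the groups as Apoc2 was. Relb, an NF-kappaB subunit gene, was at 1.59, 1.36, 0.37 and 0.44 FPKM in hypoxia libraries 1 to 4, against 4.23, 1.78, 7.99 and 1.9 FPKM in normoxia libraries 5 to 8, with a log2 difference of -1.53 ± 0.51 (SE, limma adjusted p = 0.188, and 0.0252 to 0.921 over 19 alternatives, of which 4 passed). The groups of Nectin2 (-1.43 ± 0.66, adjusted p = 0.489), Clptm1 (-0.50 ± 0.70, adjusted p = 0.986) and Tomm40, a mitochondrial import gene beside Apoe (-0.28 ± 0.59, adjusted p = 0.999), overlapped. The antisense gene Gm20512 was listed at 0 in all libraries. Whether these differences are smaller than that of Apoc2 was not tested.

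With each group's mean taken out, so that only differences between libraries of 1 group count, the 8 genes nearest to Apoc2 among 7657 candidates were Golt1a, Wbp1, Ubald1, Crat, Dusp23, Fbxl15, Pqlc2 and Cnbd2. Their Pearson correlations with Apoc2 were 0.981 to 0.992 over the 8 libraries and 0.932 to 0.973 without normoxia library 5. All 8 were highest in that library, as Apoc2 was. For Golt1a the levels were 0.86, 3.06, 1.02 and 1.35 FPKM in hypoxia libraries 1 to 4, against 11.0, 1.13, 2.71 and 0.78 FPKM in normoxia libraries 5 to 8. Unlike Apoc2, its groups overlapped, and none of the 8 passed in limma (adjusted p between 0.704 and 0.999). The correlations share depth and library composition with Apoc2 and are a description.

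As deposited, the summed macrophage markers were lower in the hypoxia libraries, except that hypoxia libraries 1 and 2 lay just above normoxia library 8. Ribosomal transcripts took 40.95% and 21.55% in hypoxia libraries 1 and 2 and 72.51% in normoxia library 8. The TMM divisors of these libraries were 1.24, 1.42 and 0.77, so the order of their sums depends on the scaling. Apolipoprotein E, apolipoprotein C-II and phospholipid transfer protein are all products of lipid-laden macrophages. The 20 macrophage and monocyte markers, summed, were at 59.0 to 201.2 FPKM in the hypoxia libraries and at 194.5 to 1351 FPKM in the normoxia libraries. Of the 20, 1 fell, the Fc receptor gene Fcgr1 (log2 difference -2.18 ± 0.48, SE, limma adjusted p = 0.0266, and 0.00325 to 0.4155 over 18 alternatives), and none rose, with a list median of -1.75 where the median of all tested genes was -0.14. None of the 20 was under 0.5 FPKM in every library. Fcgr1 did not pass in 4 of the 18 alternatives, which were no filter, averaged hypoxia pairs, and leaving out normoxia library 5 or 7. In bulk tissue, fewer cells of a type and less RNA per cell cannot be told apart, and the part of macrophage content in Apoc2, Apoe and Pltp was not tested. Injured tubule markers had a list median of -2.58, below that of the macrophage markers. For both lists, the share of all tested genes that fell was 0.602%. Of 15 injured tubule markers 5 fell and none rose, and their sum was 290.3 to 2633 FPKM after hypoxia and 1892 to 5675 FPKM after normoxia. Spp1 alone gave 64.6% of that FPKM over the 8 libraries, and it was not among the 5, which were Sox9, Timp1, S100a6, Cd44 and Krt20. These calls hold as deposited and were not followed gene by gene over the alternatives. Without the filter no gene passed. Over all tested genes, 87 were lower as deposited, 5 with averaged hypoxia pairs and 4 without normoxia library 7.

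None of the endothelial, fibroblast, fat cell, liver, lymphocyte and neutrophil markers passed in limma (adjusted p under 0.05). Markers of endothelium, on which lipoprotein lipase is displayed, summed to 44.9 to 112.4 FPKM after hypoxia and 34.2 to 111.9 FPKM after normoxia. None of 12 was past the threshold, and their median log2 difference was 0.08, beside 1.24 for Lpl. That of the proximal tubule markers was 1.16, and the part of tubule content in the level of Lpl was not tested. Fibroblast and pericyte markers summed to 58.0 to 147.1 FPKM after hypoxia and 164.3 to 517.3 FPKM after normoxia (14 tested, median log2 difference -0.88). Liver and plasma protein markers summed to 36.3 to 260.8 FPKM after hypoxia and 7.8 to 156.8 FPKM after normoxia, with Ahsg and Cps1 listed at 0 in all libraries and Alb at 0.56 FPKM or less. Lymphocyte markers (1 tested) summed to 0.27 to 1.72 FPKM after hypoxia and 0.3 to 8.67 FPKM after normoxia. Neutrophil markers (3 tested) summed to 0 to 6.54 FPKM after hypoxia and 5.29 to 67.44 FPKM after normoxia. The part of these cells in the levels of the 8 genes was not tested.

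Of 146 further genes of lipoprotein handling in 6 lists, 142 were in the table and 110 were tested. None passed in limma in either direction as deposited. At an unadjusted p under 0.05, 5 were higher and 12 were lower, and over all genes 364 and 988. With TMM factors from the tested genes 1 was higher and 5 were lower, against 175 and 191 of all 14444 tested genes. With TMM factors from all genes the numbers were 0 and 3, against 115 and 113. With TMM scaling and normoxia library 5 left out, 11 were higher and 12 lower, against 831 and 767 of all 14414 tested genes. With factors from all genes they were then 7 and 9, against 638 and 608. Leaving out that library without TMM scaling gave 0 and 0, against 33 and 50.

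Among receptors and uptake genes (22 tested, median log2 difference -0.50), those of macrophages were nearest to the threshold. Cd68, a scavenger receptor family member of macrophage lysosomes, had a mean of 3.06 ± 2.19 FPKM in hypoxia libraries, against 20.6 ± 13.4 FPKM in normoxia libraries (SD, n = 4 in each), a log2 difference of -2.56 ± 0.65 (SE, limma adjusted p = 0.06). With TMM scaling its adjusted p was 0.0213, or 0.0378 with factors from all genes, and it was 0.00828 to 0.475 over 19 alternatives in limma. Trem2, a lipid-sensing receptor of macrophages that binds apolipoprotein E, was at 0.33, 0.38, 0 and 0.09 FPKM in hypoxia libraries 1 to 4, against 4.88, 0.68, 3.07 and 1.01 FPKM in normoxia libraries 5 to 8 (log2 difference -1.83 ± 0.47, SE, limma adjusted p = 0.06). Trem2 passed in 5 of 18 alternatives (adjusted p of 0.00836 to 0.499 in limma). The lists share genes. Cd68 is also one of the macrophage and monocyte markers, and Trem2 is also among the lipid-associated macrophage genes, so these lists are not separate observations. Cd36, which takes up the fatty acids that lipoprotein lipase frees, lay on the other side with Lpl. It had a mean of 20.3 ± 14.7 FPKM in hypoxia libraries, against 5.05 ± 2.73 FPKM in normoxia libraries (SD, n = 4 in each), with a log2 difference of 1.74 ± 0.68 (SE, limma adjusted p = 0.321). The adjusted p of Cd36 with TMM scaling depended on the genes that set the factors, 0.0438 with the tested genes and 0.0743 with all genes, and passed in 5 of 19 alternatives, the lowest being 0.0254 in limma. Cd36 was singled out after its values were seen.

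Lipid-associated macrophage genes (19 tested) had the lowest list median, -0.98, with 15 of 19 below 0. Of all 14444 tested genes, 8815 were below 0 as deposited. Tyrobp, the signalling adaptor of Trem2, had a mean of 4.85 ± 4.06 FPKM in hypoxia libraries, against 74.5 ± 89.6 FPKM in normoxia libraries (SD, n = 4 in each), with a log2 difference of -3.32 ± 0.85 (SE, limma adjusted p = 0.06), or -2.53 without normoxia library 5. Tyrobp passed in 8 of 19 alternatives (adjusted p of 0.00411 to 0.532 in limma), and it is also one of the macrophage and monocyte markers. Tyrobp was highest in normoxia library 5, at 202.9 FPKM, against 11.4 to 69.3 FPKM in the remaining normoxia libraries.

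Lipases and their regulators (19 tested, median -0.04) held no gene with an unadjusted p under 0.05. The 2 with the smallest p were Mgll, a monoglyceride lipase gene (log2 difference 0.91 ± 0.48, SE, limma adjusted p = 0.603), and Plin2, which encodes a coat protein of lipid droplets (-1.35 ± 0.72, adjusted p = 0.625). The proteins that mature, anchor or inhibit lipoprotein lipase were taken by role. Lmf1, needed for its folding, had a log2 difference of -0.43 (adjusted p = 0.957), Gpihbp1, its anchor on capillaries, of -0.37 (adjusted p = 0.991) and Angptl4, its inhibitor, of -0.40 (adjusted p = 0.999). Without normoxia library 5 the 3 differences were 0.13, 0.01 and 0.28, so none of them has a direction to report.

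Other apolipoproteins (12 tested) had a list median of 0.59, above that of all genes. Apoa4, a component of high density and triglyceride-rich particles, was at 4.4, 17.73, 1.08 and 1.67 FPKM in hypoxia libraries 1 to 4, against 5.53, 0.29, 0 and 0 FPKM in normoxia libraries 5 to 8 (log2 difference 2.0 ± 0.71, SE, limma adjusted p = 0.234). With TMM scaling without normoxia library 5 its adjusted p was 0.0159, the lowest of 19 alternatives in limma, of which 4 passed and the highest was 0.799. Clu, also called apolipoprotein J and a marker of tubular injury, had a mean of 74.0 ± 56.0 FPKM in hypoxia libraries, against 445.0 ± 440.4 FPKM in normoxia libraries (SD, n = 4 in each), a log2 difference of -2.36 ± 0.92 (SE, limma adjusted p = 0.321), or -1.74 without normoxia library 5.

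Genes of cholesterol efflux and esterification (17 tested, median -0.31) and nuclear receptors and factors of lipid control (24 tested, median 0.15) also had no member past the threshold as deposited. In the first list the smallest p were those of Ch25h, a cholesterol hydroxylase gene (-0.85 ± 0.46, SE, limma adjusted p = 0.625), and Lcat, which esterifies cholesterol on particles (-0.83 ± 0.48, adjusted p = 0.687, and -0.38 without normoxia library 5). In the second they were those of the coactivator genes Ppargc1a (1.48 ± 0.56, SE, limma adjusted p = 0.291) and Ppargc1b (0.78 ± 0.42, adjusted p = 0.618). Nr1h3, the sterol-sensing receptor LXR alpha that drives Apoe, Apoc2 and Pltp in macrophages, had a mean of 4.94 ± 2.59 FPKM in hypoxia libraries, against 6.37 ± 6.58 FPKM in normoxia libraries (SD, n = 4 in each), with a log2 difference of 0.01 ± 0.64 (SE, limma adjusted p = 0.999) that was negative in 5 of 19 alternatives. With TMM scaling without normoxia library 5 that difference was 0.86 (limma adjusted p = 0.0376, or 0.0719 with factors from all genes), and this was the 1 of 19 alternatives in which it passed.

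**Figure D4:**
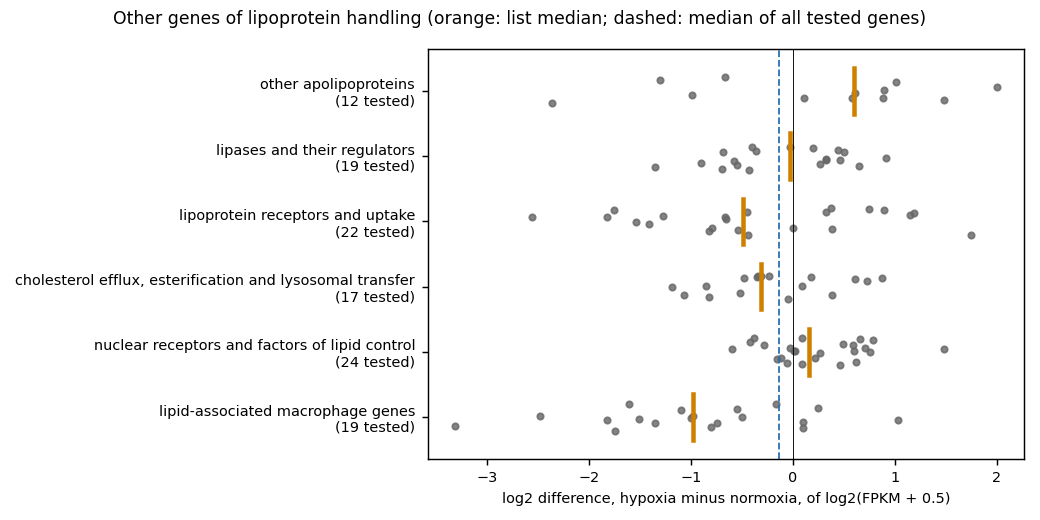
Log2 difference, hypoxia minus normoxia, of log2(FPKM + 0.5) for each tested gene of the 6 lists (grey points, horizontal axis), with the list median (orange bar) and the median of all tested genes, -0.14 (dashed line). No point is past the threshold as deposited, and the lipid-associated macrophage genes have the lowest median, -0.98.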

How the data were processed

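Poly(A) RNA of kidneys was sequenced from stranded TruSeq libraries, per the labels' protocols. The submitters' processing notes name the tools HISAT2, StringTie and edgeR, with neither version nor role. The authors deposited FPKM per gene and library, per the file headers, with no recorded scaling between libraries. The build and annotation they used were not given in any source used. All 34450 Ensembl identifiers matched GENCODE M21 (GRCm38), used for symbols, exon lengths and coordinates. Read counts were not used here. Depth was estimated from the most frequent product of FPKM and exon length among genes that have 1 exon and 600 to 3000 bases.

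Genes with a mean of at least 0.5 FPKM were tested as log2(FPKM + 0.5) with limma 3.58.1 in R 4.3.3 (eBayes with trend, two-sided, Benjamini-Hochberg adjusted p under 0.05 over all tested genes), after the step was tested on simulated data. The members and lists were chosen with earlier results of these data known. Of each list, genes past the threshold or the 2 with the smallest p were named. Alternatives were 2 pseudocounts, 2 filters, TMM, quantile and length-trend scaling, averaged hypoxia pairs and each library left out. The planned TMM scaling did not name the genes that set its factors: factors from all genes were computed first, the tested genes were taken after those counts had been seen, and both versions are reported, all genes as an alternative added after seeing the data.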

Additional observations from a re-analysis of the deposited data

Results flagged for a closer look

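Within-group gaps were checked in 84 groups of 4 libraries, of which 19 had 1 library whose gap to the rest, over the range, was above Dixon's critical value. Chance alone flags about 1 in 20 groups, but the 19 cannot be read against that. In 5 of them the other 3 libraries were at 0, so that any value would be set apart, and 3 of those 5 are the same Apoc2 value of hypoxia library 2, alone and as ratios. Fga, Apoh, Pck1, Apoa2 and Apoc3 were looked at because 1 library was high. Normoxia library 5 was the one set apart in 10 and hypoxia library 2 in 8.

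Normoxia library 5 was set apart for Apoc2 (32.38 FPKM), Apom (131.7 FPKM), Apoc4 (0.22 FPKM), Apoa4 (5.53 FPKM), Apoc3 (32.33 FPKM), Apoa2 (26.45 FPKM), Angptl4 (36.36 FPKM), Lmf1 (5.19 FPKM), Apoh (0.48 FPKM, with the other normoxia libraries at 0) and the ratio of Apoc2 to Apoe (0.153). Hypoxia library 2 was set apart for Apoc2 (0.82 FPKM, with the other hypoxia libraries at 0), Mgll (4.2 FPKM), Angptl4 (28.26 FPKM), Fga (133.4 FPKM), Apoh (15.13 FPKM), Pck1 (1664 FPKM) and the ratios of Apoc2 to Apoe (0.0121) and of Apoc2 to Lpl (0.023). Hypoxia library 1 was set apart for the ratio of Lpl to Apom (1.22).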

How the results depend on the processing

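As deposited, 44 genes were higher and 87 lower after hypoxia over all tested genes, and 0 and 0 of the other genes of lipoprotein handling. Higher and lower counts over all genes were 0 and 0 without the filter, 175 and 191 with TMM scaling, 280 and 349 with quantile normalization, 200 and 251 with the length trend removed, 831 and 767 with TMM scaling without normoxia library 5, and 22 and 5 with hypoxia libraries averaged in pairs. With a pseudocount of 1, 47 were lower. Among the other lipoprotein genes they were 1 and 5 with TMM scaling, 3 and 8 with quantile normalization, 2 and 5 with the length trend removed, and 11 and 12 with TMM scaling without normoxia library 5, while 2 were lower with a filter of 2 FPKM. Leaving out 1 library gave 11 to 67 higher and 4 to 237 lower genes among all tested, and 0 to 2 and 0 to 4 among the lipoprotein genes. The extremes came without normoxia library 7 (11 higher, 4 lower), hypoxia library 4 (67 higher) and normoxia library 8 (237 lower). TMM scaling was first computed with factors from all genes, which gave 115 and 113 over all genes and 0 and 3 among the lipoprotein genes, and 638 and 608, and 7 and 9, without normoxia library 5. Factors from the tested genes, which give more calls, were taken after these counts had been seen, so the TMM counts rest on a choice made after seeing the data. The causes were not tested. Without the filter, an unadjusted p under 0.05 was found for 665 higher and 1356 lower genes in limma.

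With a pseudocount of 0.1 the log2 difference of Apoc2 was -4.79. Direction was lost for genes that did not pass as deposited. With TMM scaling without normoxia library 5 (in brackets with factors from all genes) the log2 differences turned positive for Gpihbp1, at 0.21 (0.21), Lmf1, at 0.31 (0.31), Angptl4, at 0.54 (0.55), Clptm1, at 0.25 (0.26) and Golt1a, at 0.28 (0.28). Leaving out 1 library gave -0.83 to 0.012 for Gpihbp1, -0.76 to 0.13 for Lmf1, -1.11 to 0.28 for Angptl4 and -1.03 to 0.027 for Golt1a, all 4 positive without normoxia library 5 alone. It gave -0.56 to 0.12 for Tomm40, positive without hypoxia library 3 or normoxia library 7, and -0.47 to 0.59 for Nr1h3, negative without hypoxia library 1 or 2 or normoxia library 6 or 8. Nr1h3 was also at -0.019 with a pseudocount of 1. No paired analysis was possible because the groups share no replicate number. Outside normoxia library 5, the low genes Apoc1, Apoc2, Apoc4 and Apod rested on few fragments.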

Other observations

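Hypoxia library 2 held the most of several genes of plasma proteins made by liver, but not of all. Of the liver and plasma protein markers, Ttr, Hp, Apoa2 and Apoc3 were highest in normoxia library 5. Ttr, which gave 39.1% of that list's FPKM, was at 76.56 FPKM in normoxia library 5 and at 60.37 FPKM in hypoxia library 2. Fga, the fibrinogen alpha chain gene, was at 8.89, 133.4, 2.09 and 3.35 FPKM in hypoxia libraries 1 to 4, against 3.68, 3.51, 2.18 and 0.78 FPKM in normoxia libraries 5 to 8. Apoh, which encodes a phospholipid-binding plasma protein, was at 15.13 FPKM in hypoxia library 2 and at 0.5 FPKM or less in the other 7. Pck1, a gluconeogenic enzyme gene of liver and proximal tubule, was at 1664 FPKM there and at 120.7 FPKM or less elsewhere. Alb was at 0.56 FPKM in that library, and Ahsg and Cps1 were listed at 0. None of Fga, Apoh and Pck1 passed in limma (adjusted p of 0.431, 0.461 and 0.1995).

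Apoa2 and Apoc3, both apolipoprotein genes of high density and triglyceride-rich particles, were highest in normoxia library 5. Apoa2 was at 26.45 FPKM there and between 0 and 2.66 FPKM in the other 7 libraries. Apoc3 was at 32.33 FPKM there, at 1.04 to 11.0 FPKM in the hypoxia libraries and at 0 to 1.05 FPKM in the remaining normoxia libraries. With TMM scaling without normoxia library 5 the log2 difference of Apoc3 was 2.45 (limma adjusted p = 0.0156, or 0.0231 with factors from all genes, the 2 of 19 alternatives in which it passed), against 0.89 (adjusted p = 0.919) as deposited.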
